A study of Mus musculus with 6 samples.

Results

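The matrix metalloproteinases (MMPs), the ADAM and ADAMTS proteases and the tissue inhibitors of metalloproteinases (TIMPs) were compared between 2 kinds of primary mouse lung tumour line. A gene belonged to this set if its symbol was Mmp, Timp, Adam or Adamts followed by a number and at most 1 letter. The array files used here carry no gene symbol, so symbols came from matching each probe's transcript accession to RefSeq. This gave 70 genes (21 MMPs, 4 TIMPs, 28 ADAMs and 17 ADAMTSs) out of 18749 named genes on an array of 41174 probes, and 33 of the 70 had several probes. RefSeq lists 10 further symbols of this form that no probe matched, among them Adam10, Adamts6, Adamts17, Mmp1b and Mmp27, and these were not analysed here.

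All 6 lines were grown from small cell lung carcinoma tumours of C57BL/6J mice with the genotype Rb1L/L, Trp53L/L. Neither the agent that deleted the alleles nor the age of the animals is given in the labels, and the control and compared lines share the genotype. The labels form 3 pairs of 1 non-SMC and 1 SMC line each, from female animals in pairs 1 and 3 and from a male in pair 2. They do not spell out SMC. Each line was hybridised once to an Agilent whole-genome array with 1 dye, so n = 3 lines per group. The titles give the 2 lines of a pair a common identifier, without saying whether it stands for an animal or a tumour, and nothing says whether the lines are clones. The p-values measure the spread between these 3 pairs.

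MMPs are zinc-dependent endopeptidases that cleave collagens, proteoglycans and other matrix proteins; most are secreted as inactive precursors, and some are anchored in the membrane. ADAMs are membrane proteins, several of which shed growth factors, cytokines and receptors from the cell surface, and ADAMTSs are secreted relatives that process procollagens and cleave proteoglycans. TIMPs bind and block these enzymes, and the balance between both shapes how tumour and stromal cells remodel the lung matrix.

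Each signal is given as a log2 value after subtracting the 75th percentile of its own array, and a difference is SMC minus non-SMC, also in log2. A probe is called detected where the scanner software marked it well above background. Signals of different probes are not comparable with each other, so levels are compared only within a gene. Between 64.1% and 68.5% of all probes were detected on an array, and no probe was saturated. Of 12 neuroendocrine markers, which many small cell carcinomas express, 10 were detected in non-SMC replicate 1 and 12 in every other line. Their summed level was 8.08 to 8.57 in SMC lines and, by replicate number, 4.95, 7.23 and 4.39 in the non-SMC lines. All 10 mesenchymal markers were detected in each non-SMC line and 6, 6 and 8 in SMC replicates 1 to 3, with summed levels of 8.64 to 9.80 and 1.56 to 4.04, and Axl and Twist1 were detected on no SMC array. For 11 fibroblast markers the counts were 10, 10 and 11 against 5, 5 and 4, with summed levels of 6.79 to 8.80 against -0.92 to 1.34, and Col1a1, Col3a1, Col5a2, Lum and Postn were detected on no SMC array. Some genes of these lists did not follow. Cdh2 and Thy1 differed by 0.22 and 0.91, and Zeb1 was highest in SMC replicate 3 (3.40). Dcn was at 0.66 in SMC replicate 1 and at -4.58 in its non-SMC partner. The summed levels of both lists, and of the neuroendocrine list, move with the group beside every result below, and their part in it was not tested. By count, leukocyte markers stood apart in non-SMC replicate 3, with all 11 of 11 detected. In non-SMC replicates 1 and 2 the scanner marked 3 and 5 of them, and in the SMC lines 3, 4 and 7. Their summed levels also kept the groups apart, at 0.87, 2.07 and 4.09 in non-SMC and -2.81, -1.91 and 0.45 in SMC lines. Most of the non-SMC sums was 1 gene, Cd14, at 0.66, 1.96 and 3.54, against -6.47, -4.53 and -5.97 in SMC lines (limma adjusted p = 0.0233). The other tested leukocyte markers, Fcer1g and Csf1r, did not pass (adjusted p = 0.232 and 0.431), and Csf1r overlapped between the groups. The part of leukocyte markers in the results below was not tested either. The 8 epithelial markers did not follow the groups (5, 8 and 8 detected in non-SMC, 7, 8 and 6 in SMC lines). Their summed levels were 0.52, 8.68 and 8.9 in non-SMC and 7.57, 8.58 and 2.35 in SMC lines. They were thus low in non-SMC replicate 1 and SMC replicate 3. Of 7 endothelial markers each line had 2 detected, not the same pair in all lines, with Egfl7 on every array. Pecam1, Cdh5, Cldn5 and Emcn were detected on none. In such bulk RNA, fewer cells of a type and less RNA per cell cannot be told apart.

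Fewer members were detected in SMC than in non-SMC lines: 46, 45 and 47 of the 70 in the non-SMC lines, and 32, 35 and 34 in the SMC lines, each by replicate number. The MMPs carried much of this gap, with 14, 12 and 15 of 21 detected in the non-SMC lines and 7 in each SMC line. ADAM genes numbered 17 in each non-SMC line and 11, 14 and 12 in the SMC lines, of 28. For ADAMTS genes the counts were 11, 13 and 12 against 10, 11 and 11, of 17, and these ranges touch. Either 3 or 4 TIMPs were detected in every line. On no array were 13 members detected: Adam1b, Adam2, Adam6a, Adam7, Adam18, Adam22, Adam24, Adam29, Adamts13, Mmp1a, Mmp20, Mmp21 and Mmp25, of which most ADAMs are known from the male germ line.

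**Figure D1:**
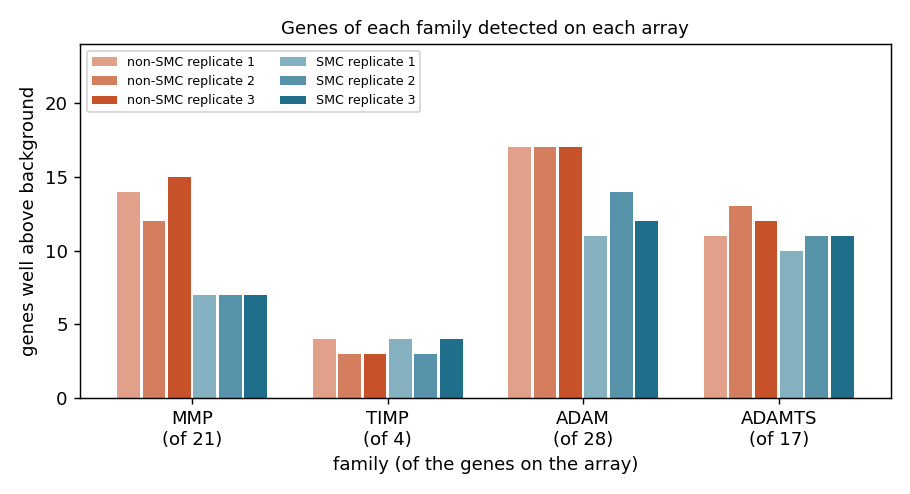
Number of genes of each family (y axis) whose brightest usable probe was well above background, as 1 bar per array, for the 21 MMPs, 4 TIMPs, 28 ADAMs and 17 ADAMTSs on the array. The 3 SMC bars of the MMPs stand at 7, below the non-SMC bars at 12 to 15, while the ADAMTS bars of both groups lie between 10 and 13.

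Which of these proteases and inhibitors differ between the lines of a pair was asked by setting each SMC line against its non-SMC partner. Timp1, Timp2, Mmp3, Mmp19, Adamts2, Adam12 and Adam5 were lower in the SMC lines and no member was higher (limma, adjusted p under 0.05). These 7 are 16.3% of the 43 members tested, and over all 19847 features tested 3.03% were lower and 0.156% higher. By unadjusted p under 0.05, 19 members were lower and 3 higher, against 11.8% and 14.9% of all features. The median difference was -1.88 over the 43 tested members and 0.18 over all features tested. To be tested, a gene had to be detected on all arrays of a group, so members bright only in the non-SMC lines were bound to differ, and these figures are a description. Without that filter, 5 of the 70 members were lower and none higher, against 1.18% and 0.0216% of 32406 features. Of the 70 differences 44 were negative, against 38.3% of those features, and 31 of the 43 tested, against 41.7% of features tested. The median over the 70 members was -0.97, against 0.11.

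The number of calls depended on which pairs were fitted. Without pair 1, Adamts2 and Timp1 alone of the 43 were called, and without pair 3 limma called no member (22 lower and 1 higher by unadjusted p under 0.05) and no feature at all. Without pair 2 there were 7 lower (Adam12, Adam23, Adamts2, Mmp3, Mmp19, Timp1 and Timp3) and 1 higher, Adamts8. With arrays scaled on the median, 11 members were lower and 1 higher, and 974 and 239 of all features, against 602 and 31 in the fit reported. When the replicate block was removed from the fit, 12 members were lower and Adamts8 was higher; Adam9, Adam19, Adam23, Mmp10, Mmp14 and Timp3 were then added as lower and Adam5 was lost. Non-SMC replicates 2 and 3 and SMC replicates 1 and 2 shared a slide, and the other lines lay alone on theirs. On the shared slide alone, fitted without pairs, 5 members were lower: Adam12, Adamts1, Mmp3, Mmp10 and Timp1. With slide and pair both as blocks the 5 were Adamts1, Adamts2, Mmp3, Mmp13 and Timp1.

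**Figure D2:**
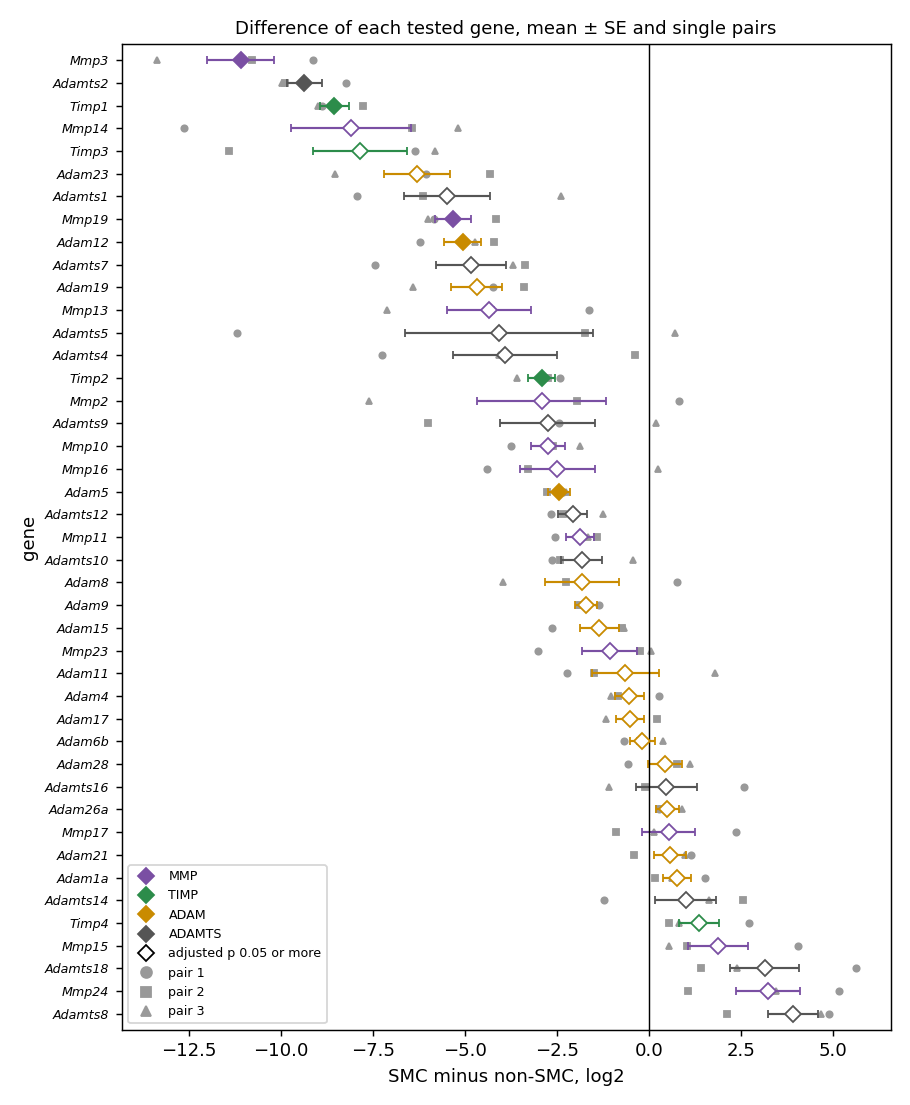
SMC minus non-SMC difference (x axis, log2) of each of the 43 tested members (y axis), as the mean of 3 pairs with its SE from the paired limma fit (diamonds, filled where the adjusted p is under 0.05, coloured by family) and as single pairs (grey). The 7 filled diamonds all lie left of 0, from -11.10 for Mmp3 to -2.46 for Adam5, while Adamts8, Mmp24 and Adamts18 stand farthest right with open diamonds.

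Among the inhibitors, Timp1 and Timp2 fell, and Timp3 and Timp4 did not pass. Timp1 encodes a secreted inhibitor that also acts as a growth factor-like signal. The non-SMC lines, given here and below in the order of replicates 1 to 3, had Timp1 signals of 6.90, 5.42 and 6.75, and the SMC lines -1.98, -2.35 and -2.25. The groups were far apart, and the difference was -8.55 ± 0.39 (SE, 3 pairs, limma adjusted p = 0.00746). A separate Timp1 probe differed by -9.03. On the shared slide alone the Timp1 difference was -8.25 (adjusted p = 0.0165). Timp2 encodes the inhibitor that also helps MMP14 activate MMP2. It was detected in every line, at 7.28, 6.42 and 7.18 in the non-SMC and 4.85, 3.68 and 3.58 in the SMC lines. All SMC values lay below all non-SMC values, by -2.92 ± 0.37 (adjusted p = 0.0448). This call sat near the threshold and was lost on the shared slide alone (-2.53, adjusted p = 0.139). Timp3, the inhibitor bound to the matrix, which also blocks ADAM17, was at 2.79, 4.12 and 4.07 in non-SMC and -3.56, -7.30 and -1.75 in SMC lines, the -7.30 not detected. The groups did not overlap, but the SMC lines scattered, and the difference of -7.86 ± 1.28 did not pass (adjusted p = 0.0719), while 8 of 20 other settings called it lower. Timp4, the inhibitor with the most restricted expression, lay at -5.34, -6.32 and -5.95 in non-SMC lines, detected in the first only, and at -2.63, -5.77 and -5.14 in SMC lines, with a difference of 1.36 ± 0.55 (adjusted p = 0.216).

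**Figure D3:**
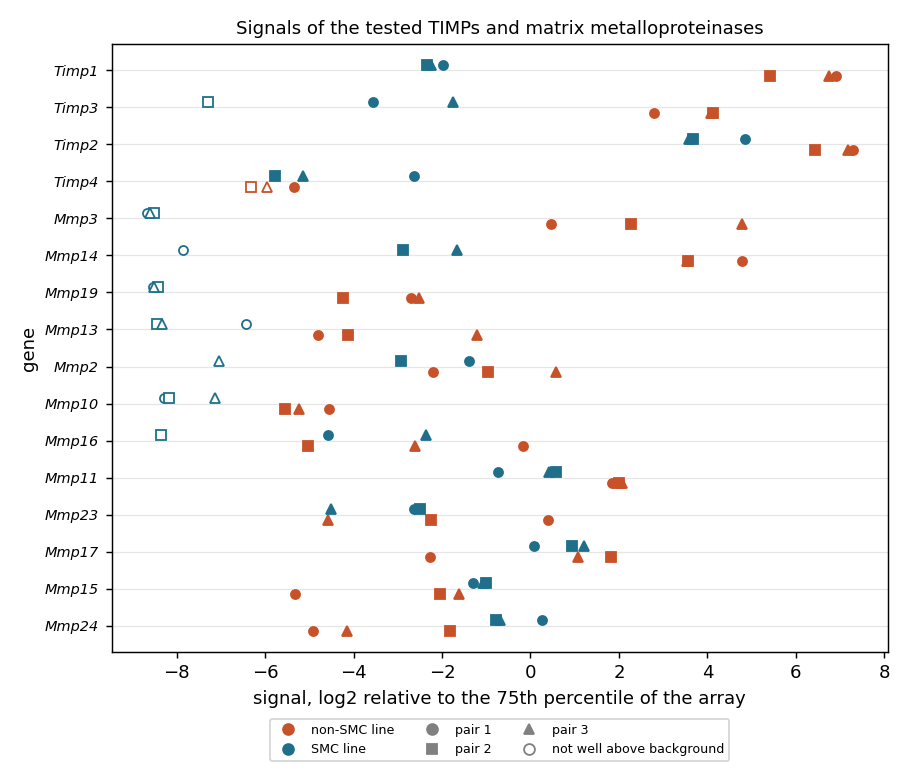
Signal (x axis, log2 relative to the array's 75th percentile) of each tested TIMP and MMP (y axis) in each line, coloured by group and shaped by pair; open symbols were not well above background. Timp1 and Mmp3 show the groups far apart, with SMC signals of -2.35 to -1.98 and -8.67 to -8.50, while Mmp15 and Mmp24 have their SMC values above all non-SMC values.

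Many secreted MMP genes lie in 1 run. In RefSeq, 10 MMP genes follow one another on chromosome 9 (Mmp13, Mmp12, Mmp1b, Mmp3, Mmp1a, Mmp10, Mmp8, Mmp27, Mmp20 and Mmp7), with no other protein-coding gene between them, and 8 were on the array. None of these 8 was detected in any SMC line. In non-SMC replicates 1 and 2, 3 of them were detected (Mmp3, Mmp10 and Mmp13), and in replicate 3, 6 were.

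Mmp3 (stromelysin-1), a broad matrix protease that also activates other MMPs, fell most among all 43. Its signal was 0.47, 2.27 and 4.77 in the non-SMC lines and -8.67, -8.50 and -8.61 in the SMC lines, none of which was detected. The mean of 2.51 ± 2.16 against -8.60 ± 0.08 (SD, n = 3) gave a fitted difference of -11.10 ± 0.91 (adjusted p = 0.0195). Because dim signals bound a level only from above, the SMC value was also set to the lowest signal counted as detected on its array where the probe's own was lower. Mmp3 was then at least 447-fold lower in SMC. Such bounds, used below too, hold for the brightest probe and for the signals as the scanner software processed them. With normexp background correction, which adds an offset and draws dim signals together, the differences were smaller: -6.10 for Mmp3 (adjusted p = 0.0334), and -1.22, -1.16 and -0.33 for Mmp19, Adam12 and Adam5, which then lost their calls (adjusted p = 0.0807, 0.0991 and 0.362). For the uncalled members with a bound, Mmp10, Mmp13, Adam23 and Adamts8, they were -0.39, -1.07, -2.03 and 0.58. Mmp10 (stromelysin-2), a close relative, lay at -4.55, -5.55 and -5.24 in non-SMC and at -8.29, -8.16 and -7.13 in SMC lines. It was detected only in the non-SMC lines and was at least 2.27-fold lower in SMC, but its difference of -2.75 ± 0.47 did not pass (adjusted p = 0.0778). It passed in 4 of 20 other settings, among them the shared slide alone (adjusted p = 0.0321). Mmp13, a collagenase, was at -4.80, -4.13 and -1.22 against -6.42, -8.44 and -8.33, again with no SMC line detected. At -4.35 ± 1.14 it did not pass (adjusted p = 0.131), with a bound of at least 7.53-fold. It passed in 1 of 20 other settings, with the pair and the shared slide against the others as blocks (adjusted p = 0.0409).

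Mmp8, Mmp12 and Mmp7 (neutrophil collagenase, macrophage elastase and matrilysin) were detected in non-SMC replicate 3 alone. Mmp12 stood at -2.64 there, and between -8.60 and -8.22 in the other 5 lines. Mmp8 was at -1.68 there and between -8.64 and -7.89 elsewhere, and Mmp7 at -5.39 against -8.23 to -6.97. This is the line with all 11 leukocyte markers detected. Their summed level was 4.09 there, 0.87 and 2.07 in the other non-SMC lines and -2.81 to 0.45 in the SMC lines. In the non-SMC lines most of it was Cd14. The part of those markers in the signals was not tested.

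The stretch before the start of 3 of these neighbours is shown because they were detected in all non-SMC and no SMC lines and share motifs, beside Mmp14 and Timp1 from other chromosomes for contrast. Each sequence is the 150 bases before the gene's start in RefSeq (GRCm38.p6, all on the + strand), and capitals mark matches to TGANTCA (the AP-1 site), TATAAA (the TATA box) or ACCACA (a RUNX site), searched on both strands.
Mmp3, chr9:7445672-7445821: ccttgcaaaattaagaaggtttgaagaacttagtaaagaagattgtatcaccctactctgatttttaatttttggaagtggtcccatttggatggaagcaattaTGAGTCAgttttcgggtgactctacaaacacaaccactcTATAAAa
Mmp10, chr9:7502192-7502341: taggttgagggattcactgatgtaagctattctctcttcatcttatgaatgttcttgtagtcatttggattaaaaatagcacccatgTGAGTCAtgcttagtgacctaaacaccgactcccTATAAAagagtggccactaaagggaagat
Mmp13, chr9:7272364-7272513: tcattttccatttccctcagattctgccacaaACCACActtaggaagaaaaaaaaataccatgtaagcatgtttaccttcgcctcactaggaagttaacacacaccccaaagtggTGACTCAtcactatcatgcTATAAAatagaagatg
Mmp14, chr14:54431448-54431597: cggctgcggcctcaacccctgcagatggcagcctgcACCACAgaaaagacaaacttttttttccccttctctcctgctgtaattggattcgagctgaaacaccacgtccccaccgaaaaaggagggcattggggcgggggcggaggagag
Timp1, chrX:20870016-20870165: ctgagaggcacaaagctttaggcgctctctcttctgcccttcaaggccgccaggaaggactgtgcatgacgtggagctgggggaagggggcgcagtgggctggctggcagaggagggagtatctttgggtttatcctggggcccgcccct

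The searches covered 300 bases for each start (250 before and 50 after), and TGANTCA reads the same on both strands. All 8 neighbours on the array had such a window. TGANTCA was found in 7 (all but Mmp8) and TATAAA in all 8, not always shortly before the start. The TATAAA match lay after the start in Mmp12 (bases 5 to 10) and at -58 to -53 in Mmp20. In Mmp3 and Mmp13 it lay close to the annotated start, at -7 to -2 and at -16 to -11. In Mmp8 it lay across the start (-3 to 3), on the other strand. Of all 27025 genes with a window, 8.97% held TGANTCA, 15.7% TATAAA and 18.9% ACCACA. Over the 42 members with a window, 11 held TGANTCA, 13 TATAAA and 9 ACCACA, the last in 2 of the 8 neighbours. Mmp1a and Mmp20 held both motifs and were detected nowhere, and the windows of Timp1, Timp2 and Adamts2, which fell, held none of the 3 motifs. GGGCGG (the GC box), not marked above, was in 22 of the 42 and in 38.2% of all genes, in none of the 8 neighbours and in Timp1, Timp2, Timp3, Adamts2 and Mmp14. CATTCC (a TEAD site), not marked either, was in 4 of the 42, in none of the 8 neighbours and in 16.6% of all genes. A match is a description of these letters and not of binding.

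Outside this run, Mmp19 was the one other MMP that fell. Mmp19 encodes a basement membrane protease. Its non-SMC signals were -2.69, -4.24 and -2.51 and its SMC signals -8.54, -8.41 and -8.51, the latter not detected. The difference was -5.34 ± 0.49 (adjusted p = 0.0241), at least 8.89-fold, and on the shared slide alone it was -5.10 (adjusted p = 0.0565). Mmp11 (stromelysin-3), known from tumour stroma, was detected in every line. It was at 1.84, 2.0 and 2.07 in non-SMC and -0.73, 0.58 and 0.42 in SMC lines, which do not overlap, but -1.88 ± 0.37 did not pass (adjusted p = 0.0987).

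The gelatinases did not pass a test. Mmp2 (gelatinase A) was at -2.21, -0.97 and 0.57 in the non-SMC lines and at -1.40, -2.92 and -7.04 in the SMC lines, the last not detected. Its pairs differed by 0.81, -1.95 and -7.61, and the mean of -2.92 ± 1.76 had an adjusted p of 0.351. Mmp9 (gelatinase B) was not tested. By its brightest probe it was detected in non-SMC replicate 1 only, at -5.11, and by its other probe in that line and in SMC replicate 3, at -5.53 and -5.83.

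Membrane-type MMPs went both ways, and none passed by its brightest probe. Mmp14 (MT1-MMP), the collagenase of the cell surface that activates MMP2, was at 4.79, 3.55 and 3.53 in non-SMC and -7.86, -2.89 and -1.66 in SMC lines. The SMC values lay far below, and SMC replicate 1 was not detected. The difference of -8.10 ± 1.64 gave an adjusted p of 0.103, with pair values of -12.65, -6.45 and -5.19. It passed in 5 of 20 other settings, among them median scaling, normexp correction and the fit without the replicate block. Its other probe differed by -6.76 and passed when each probe was tested on its own. Mmp24 (MT5-MMP), known for its expression in the nervous system, was at -4.91, -1.83 and -4.15 in non-SMC and 0.25, -0.77 and -0.69 in SMC lines. All SMC values were the higher ones, by 3.23 ± 0.88 (adjusted p = 0.135). The smallest gap, 1.06, was in pair 2. Its non-SMC line had the highest summed neuroendocrine level of the non-SMC lines (7.23), and a link between them was not tested. In 1 of 21 other settings, without the replicate block and without non-SMC replicate 2, Mmp24 passed as higher (4.12, adjusted p = 0.00945). That setting called 1559 of all 19847 features higher, against 31 in the fit reported. Mmp15 (MT2-MMP) was at -5.33, -2.05 and -1.61 against -1.29, -1.0 and -1.07. It did not overlap either, but at 1.88 ± 0.81 it did not pass (adjusted p = 0.235). Mmp17, a lipid-anchored type, lay at -2.27, 1.83 and 1.08 against 0.09, 0.93 and 1.21, with 0.53 ± 0.73 (adjusted p = 0.672). Mmp16 (MT3-MMP) was at -0.16, -5.03 and -2.60 against -4.57, -8.34 and -2.37, with -2.49 ± 1.02 (adjusted p = 0.217). Both sets overlap. Mmp23, another membrane-bound MMP, overlapped too, at 0.40, -2.24 and -4.58 against -2.63, -2.49 and -4.52 (difference -1.07 ± 0.74, adjusted p = 0.404).

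The ADAMs known to shed surface proteins included 1 gene that fell, Adam12, among 7 tested. Adam12 (meltrin alpha), known from mesenchymal and muscle precursor cells, was at -2.22, -4.05 and -2.85 in non-SMC and at -8.45, -8.28 and -7.58 in SMC lines. No SMC line was detected by this probe, and the difference was -5.06 ± 0.50 (adjusted p = 0.0284), at least 9.56-fold. A second probe differed by -3.86 and was at -5.63 in SMC replicate 2, its one detected SMC value. With dim signals set to the detection floor the difference shrank to -3.26 and no longer passed. Adam19 (meltrin beta) was at 0.15, -1.84 and -0.53 against -4.09, -5.23 and -6.95, the last not detected. Its groups were apart by -4.68 ± 0.69 without passing (adjusted p = 0.0602), and 6 of the other settings called it. Adam9, a widely expressed sheddase, was detected everywhere and had little spread: 3.55, 3.67 and 4.05 in non-SMC and 2.19, 1.77 and 2.13 in SMC lines. Its difference of -1.72 ± 0.30 did not pass (adjusted p = 0.0833). Adam8, known from leukocytes, was at -1.07, 0.24 and 3.73 against -0.30, -2.02 and -0.24. The groups overlapped, non-SMC replicate 3 was highest, and the difference was -1.82 ± 1.01 (adjusted p = 0.317).

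Adam17, the sheddase of TNF and of several EGF receptor ligands, differed little. It was detected in every line, at 0.70, 0.82 and 1.81 in non-SMC and 0.11, 1.04 and 0.64 in SMC lines. The groups overlapped, with a difference of -0.52 ± 0.39 (adjusted p = 0.445), and a second probe gave -0.51. Across the other settings the Adam17 difference ranged from -0.88 to -0.17.

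Of the ADAMs without protease activity that act in adhesion, Adam23, a neural integrin ligand, was at -1.79, -3.74 and 0.43 in non-SMC and at -7.86, -8.06 and -8.10 in SMC lines, none of the latter detected. It was at least 24.2-fold lower in SMC, but its difference of -6.31 ± 0.90 did not pass (adjusted p = 0.0566). Adam11 was at -4.47, -4.27 and -3.46 against -6.70, -5.78 and -1.67, and the SMC lines spanned the non-SMC range (difference -0.65 ± 0.91, adjusted p = 0.678).

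Among 17 ADAM genes known from the male germ line, 6 were tested and 1 fell, Adam5. Its signals were low: -6.14, -5.50 and -4.55 in non-SMC, and -8.48, -8.27 and -6.80 in SMC lines, not detected. The difference was -2.46 ± 0.30 (adjusted p = 0.0412), at least 1.87-fold. A second Adam5 probe was detected on no array, and 16 of 20 other settings lost the call. Adam1a, Adam4 and Adam21 were detected in all 6 lines, with differences of 0.76 ± 0.39, -0.54 ± 0.39 and 0.57 ± 0.44 and overlapping groups (adjusted p = 0.291, 0.428 and 0.447). The neighbouring relatives of 2 members read apart: Adam1b and Adam6a were detected nowhere, while Adam1a and Adam6b were detected in all 6 lines.

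**Figure D4:**
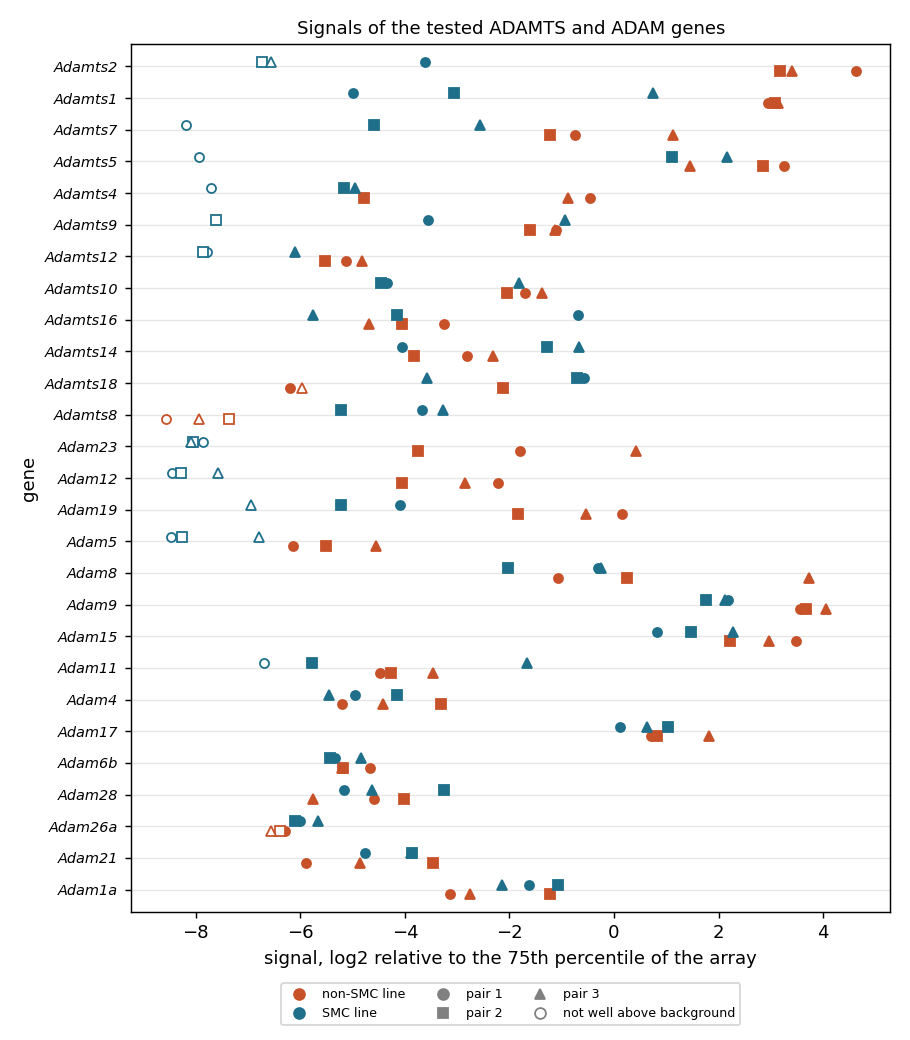
Signal (x axis, log2 relative to the array's 75th percentile) of each tested ADAMTS and ADAM gene (y axis) in each line, coloured by group and shaped by pair; open symbols were not well above background. Adamts2 has non-SMC values of 3.17 to 4.63 and SMC values of -6.74 to -3.61, Adamts8 is detected in the SMC lines only, and Adam17 overlaps between the groups.

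In the ADAMTS family, Adamts2 fell and 11 tested members did not pass. Adamts2 removes the N-propeptide of fibrillar procollagens. Its non-SMC signals were 4.63, 3.17 and 3.41, and its SMC signals were -3.61, -6.74 and -6.56, with only the first detected. The groups were far apart, by -9.37 ± 0.48 (adjusted p = 0.00848), and by -8.46 on the shared slide alone (adjusted p = 0.0601). A second, dimmer Adamts2 probe differed by -3.56. Adamts14, another procollagen N-proteinase, was at -2.82, -3.82 and -2.31 against -4.05, -1.28 and -0.67 (difference 0.99 ± 0.84, adjusted p = 0.495). The third of this group, Adamts3, was not tested. It was detected in non-SMC replicates 2 and 3 only, at -5.51 and -2.55.

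The proteoglycan-cleaving ADAMTSs varied among the SMC lines. Adamts1, which cleaves versican and aggrecan, was nearly equal in the non-SMC lines, at 2.94, 3.09 and 3.14. In SMC replicates 1 to 3 it was -4.99, -3.06 and 0.75, all lower. The difference of -5.49 ± 1.18 did not pass (adjusted p = 0.109). It passed in 3 of 21 other settings, among them the shared slide alone, where both SMC lines are the lower ones (-7.14, adjusted p = 0.0348). Adamts5, an aggrecanase, lies next to Adamts1 in the genome and was at 3.26, 2.86 and 1.46 against -7.93, 1.11 and 2.17. SMC replicate 1 was not detected, replicate 2 lay just below the non-SMC range and replicate 3 within it, and the Adamts5 difference was -4.08 ± 2.56 (adjusted p = 0.366). Adamts4, also an aggrecanase, was at -0.45, -4.79 and -0.87 against -7.71, -5.17 and -4.96 (-3.91 ± 1.42, adjusted p = 0.188), with every SMC value the lower. Adamts8 went the other way: it was at -8.58, -7.36 and -7.93 in non-SMC lines, not detected, and at -3.68, -5.23 and -3.28 in SMC lines, all detected. It was at least 4.91-fold higher in SMC, but 3.90 ± 0.68 missed the threshold (adjusted p = 0.0811), and 5 of 20 other settings called it higher. A second Adamts8 probe differed by 2.32.

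For the remaining ADAMTSs no call was made in the fit reported. Adamts7, which cleaves cartilage oligomeric matrix protein, was at -0.74, -1.23 and 1.13 against -8.19, -4.60 and -2.57 (-4.84 ± 0.96, adjusted p = 0.100). Adamts12, its relative, was at -5.13, -5.53 and -4.83 against -7.79, -7.86 and -6.10, where only the last SMC line was detected (-2.08 ± 0.40, adjusted p = 0.0967). In both, every SMC value was below every non-SMC value. Adamts18 was at -6.19, -2.13 and -5.97 against -0.58, -0.71 and -3.57 (3.14 ± 0.93, adjusted p = 0.148), and Adamts10 at -1.71, -2.04 and -1.38 against -4.35, -4.46 and -1.82 (-1.83 ± 0.56, adjusted p = 0.154). Both of these sets overlap. Adamts7 passed as lower in 2 of 20 other settings, normexp correction and dim signals at the floor (adjusted p = 0.0234 and 0.0463). Its other probe differed by -4.43 and passed when each probe was tested on its own. Adamts10 and Adamts12 passed as lower, and Adamts18 as higher, in 1 other setting each. The other 6 tested members of both families (Adam6b, Adam15, Adam26a, Adam28, Adamts9 and Adamts16) differed by -2.76 to 0.49 and did not pass.

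Across the 43 tested members, 19 had every SMC value below every non-SMC value and 4 had every SMC value above, Mmp15, Mmp24, Adamts8 and Adam26a; over all tested features the shares were 15.4% and 22.8%. A further description is detection itself. By their brightest probes, Adam5, Adam12, Adam23, Mmp3, Mmp10, Mmp13 and Mmp19 were detected in all 3 non-SMC lines and in no SMC line, and Adamts8 in all 3 SMC lines and in no non-SMC line, against 2.33% and 0.927% of all tested features. The other probes of tested members, 27 for 24 genes, had the same sign as the brightest probe in all but those of Adam5 and Adamts14, and 22 of them gave a smaller difference.

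The other genes of the pathway were read from 4 lists, against 3.03% of all tested features lower, 0.156% higher and a median of 0.18; the filter on detection acts on these lists as on the members. Of 8 tested relatives (other metalloproteinases and ADAMTS-like proteins), Adamtsl4 and the neprilysin gene Mme were lower and none was higher, with a median of -1.17. Adamtsl4, detected on no SMC array, was at least 22.9-fold lower (adjusted p = 0.00848). Mme, detected on 1 SMC array, differed by -6.74 ± 0.87 (adjusted p = 0.0464). Among 13 activators and inhibitors, Plaur, the urokinase receptor gene, was lower, at -7.98 ± 0.31 (adjusted p = 0.00704), and none was higher, with a median of -1.75. None of 8 tested regulators of ADAM10 and ADAM17 passed. The largest differences were in the iRhom genes Rhbdf1 and Rhbdf2, which carry ADAM17 to the surface, at -3.91 ± 0.90 and -2.23 ± 0.43 (adjusted p = 0.115 and 0.0973), and the list's median was 0.21. Of 21 substrates 6 were lower and none higher, with a median of -2.76. The largest of these were Efemp1 (at least 506-fold, adjusted p = 0.0172), the fibrillin Fbn1 (-8.16 ± 1.02, adjusted p = 0.0438), Cd44 (-8.09 ± 0.51, adjusted p = 0.0124) and Notch1 (at least 49.4-fold, adjusted p = 0.0144). Fbn1 was detected on 1 SMC array, and Efemp1 and Notch1 on none.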

How the data were processed

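Total RNA of 6 lines was labelled with Cy3 and hybridised to Agilent arrays, per the labels. Per the file headers, the authors' intensity values are processed signals of Feature Extraction 10.7.3.1, background-subtracted by that software; 10.7 is named in the submitters' processing notes. The deposited series table holds log2 values (median 5.06, same direction, r of at least 0.996 with the same array's scanner values), with its centring unstated, and served as an alternative.

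Control and outlier spots were removed, spots of a probe averaged, and log2 signals set relative to each array's 75th percentile. Probes well above background on all arrays of a group, with a value on all 6, were kept, and the brightest probe stood for a gene. RefSeq (GRCm38.p6) symbols were found by accession for 27479 of 41174 probes. limma 3.58.1 in R 4.3.3 fitted group and pair (design text and labels give the pairs), two-sided, with Benjamini-Hochberg adjustment over 19847 features. Deviations of paired lines correlated at -0.01, 0.14 and 0, so the pairing rests on the labels. The scripts were tested on simulated data.

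Members and gene lists were chosen with earlier results of these data known. Values are given for the called members, TIMPs, tested MMPs, Adam17, up to 4 tested members with the largest difference in each other role, and from each pathway list up to 4 called genes with the largest difference, or 2 where none was called. The planned symbol column and mean signal were not used here: symbols came from RefSeq, and the normexp alternative used the median signal. The number of arrays limits the precision. A result for 1 gene of the activator and inhibitor list is not reported here.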

Additional observations from a re-analysis of the deposited data

Results flagged for a closer look

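In 3 named members the pairs from female animals differed in 1 direction and the pair from a male in the other. The difference between the sexes was not tested, since only pair 2 is male. Its lines also shared a slide, unlike those of pairs 1 and 3, so sex, slide and pair cannot be told apart. Adam17 differed by -0.59 and -1.17 in pairs 1 and 3 and by 0.21 in pair 2. For Adam21 the values were 1.13 and 0.98 against -0.40, and for Mmp17 they were 2.36 and 0.13 against -0.90.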

How the results depend on the processing

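With 3 pairs and 1 array per line, the smallest called difference over all features was 2.14 on the log2 scale, and dim probes give bounds only. Timp1, Mmp3 and Adamts2 kept their direction in all settings run and lost their calls in 1 of 21, 2 of 20 and 2 of 20. Timp2, Adam5, Adam12 and Mmp19 lost theirs in 13 of 21, 16 of 20, 7 of 20 and 6 of 20 settings. For dependence on the pairing, the fit with no replicate block called 12 members lower and 1 higher, and 975 and 274 of all features. Median scaling gave 11 and 1, and 974 and 239; the median difference of all features was then 0.10, against 0.18. Of all features, 54 were higher with normexp and also with each probe tested alone. There were 9 with the shared slide against the others as a block, and 20 on the shared slide alone. With no filter 383 were lower and 7 higher, and with detection on all arrays 135 and 4, with 1 member lower (Timp1) of 20 tested; Timp2, also tested, had an adjusted p of 0.0546, and the cause was not tested. Leaving out a pair gave 0 to 7 members lower and 0 to 1 higher, and 0 to 495 and 0 to 521 of all features, lowest without pair 3 and highest without pair 2. Leaving out a line with no replicate block gave 6 to 12 members lower and 0 to 3 higher, and 432 to 1147 of all features lower; without non-SMC replicates 1, 2 and 3, 98, 1559 and 17 features were higher, and without SMC replicates 1, 2 and 3, 24, 80 and 43. 

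Some uncalled differences changed sign, and the cause was not tested. Adam11 was 0.06 with normexp, -1.87 to 0.14 without a pair and 0.34 without SMC replicate 1. Adam21 became -0.15 on the shared slide and -0.01 without non-SMC replicate 1. Mmp17 was -0.94 on the shared slide, -0.38 to 1.24 without a pair and -0.71 without non-SMC replicate 1. Mmp23 became 0.85 on the shared slide and 0.20 without non-SMC replicate 1.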

Other observations

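Several untested members were detected in single lines. Mmp28 was detected in non-SMC replicate 1 only, at -5.52. Adam39 was detected in non-SMC replicate 2 only, at -5.73, and Adam32 in non-SMC replicate 3 only, at -5.74. In SMC replicate 1 alone Adamts20, a protease known from pigment cell migration, was detected, at -4.80, and in SMC replicate 2 alone Adamts19, at -5.16. Adamts15, a versican-cleaving protease that neighbours Adamts8 in the genome, was detected in both groups, at -1.81 and -3.56 in non-SMC replicates 2 and 3 and at -5.19 and -4.58 in SMC replicates 1 and 2. Adam30 was detected in non-SMC replicates 2 and 3, at -5.26 and -4.55, and Adam25 and Adam33 in lines of both groups close to background. In the fit without a filter, which included these genes, limma called none of them.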
